A study of Mus musculus with 17 samples.

Results

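The airway secretory genes described here are Scgb1a1, Scgb3a1, Scgb3a2, Bpifa1, Bpifb1, Muc5b, Reg3g, Ltf, Pigr and Chad, taken by symbol from a table of RNA-seq counts for 31245 mouse genes in whole lung. All 10 were in the table, and all 10 reached the minimum of 20 counts in all, as did 26946 genes, which were tested. The study asked what perfluorooctanoic acid (PFOA), a long-chain perfluoroalkyl substance, does to lung tissue, and whether the nuclear receptor PPARα takes part. It held 17 libraries, each from 1 numbered mouse. WT mice were Sv/129 animals bought from a vendor. KO mice lacked mouse PPARα and KI mice carried human PPARα in its place, and both came from breeding pairs of another source, so genotype and origin cannot be told apart. From 6 weeks of age all mice ate a custom diet modelled on human intake and drank, for 14 weeks, water with 0.5% sucrose (vehicle) or the same water with 6.2 μg/mL PFOA. There were 2 WT vehicle libraries (mice 107 and 122) and 3 libraries in each other group: WT PFOA (50, 56, 65), KO vehicle (137, 145, 149), KO PFOA (52, 154, 155), KI vehicle (102, 116, 135) and KI PFOA (57, 80, 139).

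Total counts ran from 4116118 to 9237356 per library (median 7524757), so that 3 counts equal 0.325 to 0.729 CPM (counts scaled to the size of the library). WT vehicle library 122 and KO vehicle library 137 stood apart, with 65.3% and 61.3% of counts in protein-coding genes against 74.4% to 80.4% in the other 15. All 6 KO libraries were from females. All 3 KO PFOA libraries had the same number in a field of their column names, and no KO vehicle library had it. The labels do not name this field, which is read here as the i5 index. Ppara itself was counted at 4.39 to 7.21 CPM in WT, 8.82 to 11.8 CPM in libraries labelled KO and 9.08 to 20.4 CPM in those labelled KI. A sum over the whole gene does not show which part was disrupted, so this level is no check of the genotype labels, which are used as given.

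The conducting airways are lined mainly by ciliated cells and by secretory cells. Club cells, the main secretory type of the mouse bronchiole, release the secretoglobins, small proteins of the airway lining fluid, with Scgb1a1 (CC10) the most abundant. Goblet cells and submucosal glands add gel-forming mucins such as Muc5b, BPI-fold proteins that bind lipids and bacterial products, and antimicrobial proteins such as the lectin Reg3g and the iron-binding lactoferrin Ltf. Pigr carries dimeric IgA across the epithelium into the lumen. Chad encodes chondroadherin, a leucine-rich repeat protein of cartilage matrix, which also supports the larger airways.

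Promoter sequences were matched in RefSeq (GRCm38.p6) for 7 of the 10 genes: Pigr, Bpifa1, Bpifb1, Reg3g, Ltf, Scgb3a1 and Chad. The 250 bases before the start site are shown for 4 genes that shared the same 9 highest libraries, as described below. Capitals mark the TATA box letters TATAAA, searched on the gene's strand.
Bpifa1 (chr2:154142630-154142879, plus strand): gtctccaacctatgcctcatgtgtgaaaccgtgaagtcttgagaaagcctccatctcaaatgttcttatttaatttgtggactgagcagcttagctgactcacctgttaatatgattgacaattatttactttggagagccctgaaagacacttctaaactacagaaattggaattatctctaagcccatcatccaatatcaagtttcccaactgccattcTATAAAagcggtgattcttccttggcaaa
Reg3g (chr6:78468875-78469124, minus strand): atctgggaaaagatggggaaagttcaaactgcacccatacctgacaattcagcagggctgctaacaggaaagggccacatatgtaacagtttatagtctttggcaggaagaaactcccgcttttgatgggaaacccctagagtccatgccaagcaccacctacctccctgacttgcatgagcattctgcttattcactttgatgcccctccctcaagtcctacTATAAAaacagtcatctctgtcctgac
Bpifb1 (chr2:154190568-154190817, plus strand): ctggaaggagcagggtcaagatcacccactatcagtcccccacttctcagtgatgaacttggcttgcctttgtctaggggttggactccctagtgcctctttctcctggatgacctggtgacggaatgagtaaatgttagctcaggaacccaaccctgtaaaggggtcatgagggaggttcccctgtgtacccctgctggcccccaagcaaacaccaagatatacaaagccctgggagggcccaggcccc
Scgb3a1 (chr11:49663345-49663594, plus strand): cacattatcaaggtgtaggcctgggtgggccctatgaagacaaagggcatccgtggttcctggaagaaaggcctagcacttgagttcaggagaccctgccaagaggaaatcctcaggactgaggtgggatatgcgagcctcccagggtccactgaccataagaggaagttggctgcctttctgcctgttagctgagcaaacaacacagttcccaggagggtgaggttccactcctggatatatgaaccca
The TATAAA letters lay at -29 in Bpifa1 and at -27 in Reg3g, and also at -28 in Chad, counted from the start site. Of 32851 mouse promoters of 300 bases (250 before and 50 after the start), 8.32% held them. The windows were also searched on both strands for the forkhead letters TGTTTAC (3.65% of promoters), the C/EBP letters TTGCNNAA (10.8%), an NF-kB motif (0.411%) and the ETS letters CCGGAA (14.9%). The only match to these was the C/EBP letters in Ltf at -75 on the other strand. A further Bpifb1 window (chr2:154200130-154200379, plus strand), not shown, held none of the motifs searched. The 4 windows above thus shared none of the 5 motifs beyond the TATAAA letters of Bpifa1 and Reg3g.

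Levels differed widely between the genes. Per kilobase of exon, the median over 17 libraries was 12976 CPM for Scgb1a1, 191 for Scgb3a2, 29.0 for Scgb3a1, 14.8 for Muc5b, 9.39 for Chad, 7.81 for Pigr, 7.18 for Bpifb1, 1.58 for Ltf, 0.810 for Reg3g and 0.271 for Bpifa1. Chad, Pigr and Bpifb1 were neighbours in this order whose ranges over libraries overlapped. Scgb1a1 alone ranked 8 among all genes by mean CPM, and Bpifa1 and Reg3g were at 0 counts in 6 libraries each.

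**Figure D1:**
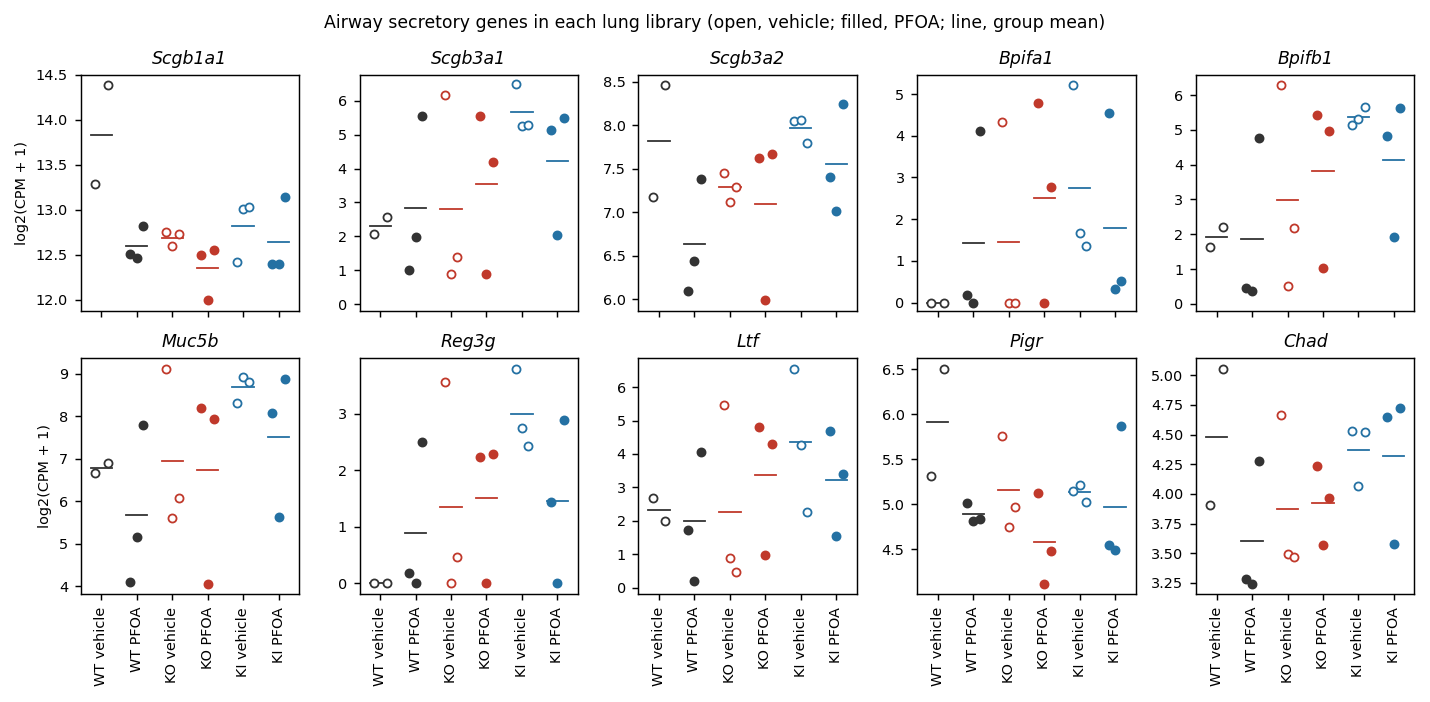
Level of each gene in each library, as log2(CPM + 1) on the y axis, with the 6 groups on the x axis. Open points are vehicle libraries, filled points are PFOA libraries and lines are group means, and the y axes differ between panels. Scgb1a1 is highest in both WT vehicle libraries, whereas Bpifb1, Scgb3a1, Reg3g and Bpifa1 differ widely within several groups and Muc5b is spread over the whole range.

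Scgb1a1 (ENSMUSG00000024653, chr19:9083636-9087958, minus strand, mm10), the marker gene of club cells, was at 9979.9 and 21353 CPM in WT vehicle libraries 107 and 122. It was at 5799.6, 5653 and 7199 CPM in WT PFOA libraries 50, 56 and 65, so that all 3 lay under both vehicle libraries. The mean was 15666 ± 8042 CPM (SD, n = 2) on vehicle and 6217 ± 853 CPM (SD, n = 3) on PFOA, and much of the vehicle mean came from library 122. In KO it was at 6877, 6177 and 6768 CPM on vehicle (libraries 137, 145, 149) and at 5778, 4079 and 6015 CPM on PFOA (52, 154, 155), again without overlap. In KI it was at 5483, 8210.4 and 8383 CPM on vehicle (102, 116, 135) and at 5369, 5372 and 8997 CPM on PFOA (57, 80, 139), with overlap. The WT vehicle libraries were thus the highest of the 17 and the other 15 lay between 4079 and 8997 CPM.

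The PFOA effect on Scgb1a1 was a log2 fold change of -1.33 (SE 0.32) in WT, -0.32 (SE 0.29) in KO and -0.16 (SE 0.29) in KI. With edgeR's quasi-likelihood test and Benjamini-Hochberg adjustment over all genes, the adjusted p was 0.456, 0.704 and 1, so none passed the threshold used throughout, an adjusted p under 0.2 with a fold over 2. DESeq2 gave nearly the same WT value (-1.34) with an adjusted p of 0.0346, which passed. The value in WT was -0.68 without library 122 and -1.78 without library 107. With the ciliated cell score as a covariate it was -0.35. Over the 3 genotypes the effect was -0.56 (SE 0.20, edgeR adjusted p = 0.484). An exact two-sided permutation test of exposure within genotype gave p = 0.01, not adjusted over genes (the smallest p it allows is 0.00025). Within 1 genotype the exact permutation test cannot go below p = 0.1, which Scgb1a1 reached in WT and in KO.

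Scgb3a2 (ENSMUSG00000038791, chr18:43764289-43767399, plus strand), a secretoglobin of club cells, was at 144 and 351 CPM in WT vehicle and at 67.2, 85.7 and 167 CPM in WT PFOA. One exposed library, 65, lay between the vehicle libraries. In KO it was at 174, 138 and 156 CPM on vehicle and 197, 62.5 and 203 CPM on PFOA. In KI the values were 264, 267 and 221 CPM on vehicle and 169, 128 and 303 CPM on PFOA. Exposed and vehicle libraries overlapped in each genotype. The log2 fold change was -1.22 (SE 0.45, edgeR adjusted p = 0.549) in WT, -0.02 (SE 0.41) in KO and -0.33 (SE 0.41) in KI. The WT value was -0.43 without library 122.

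Scgb3a1 (ENSMUSG00000064057, chr11:49663610-49665118, plus strand), the secretoglobin of larger airways, had another pattern across libraries than Scgb1a1 and Scgb3a2. It was at 3.20 and 4.91 CPM in WT vehicle and at 1.01, 2.92 and 45.6 CPM in WT PFOA. In KO it was at 70.5, 0.844 and 1.63 CPM on vehicle and 46.0, 0.852 and 17.3 CPM on PFOA. All 3 KI vehicle libraries were high, at 89.1, 37.0 and 38.2 CPM, and KI PFOA held 34.0, 3.08 and 43.9 CPM. Single libraries of the same group therefore differed widely everywhere but in WT vehicle and KI vehicle, and the exposed and vehicle libraries overlapped in each genotype. The PFOA effect was 2.05 (SE 1.70) in WT, -0.11 (SE 1.28) in KO and -1.02 (SE 1.23) in KI on the log2 scale.

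Of the wider family, Scgb1c1 was the only other secretoglobin counted, at a mean of 2.29 CPM (0.507 to 3.56 over libraries).

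Muc5b (ENSMUSG00000066108, chr7:141839070-141873084, plus strand), a gel-forming mucin needed for mucociliary clearance, was at 100.4 and 118 CPM in WT vehicle and 16.1, 34.6 and 221 CPM in WT PFOA. In KO, library 137 on vehicle held 555 CPM while libraries 145 and 149 held 47.8 and 66.9 CPM. KO PFOA held 293, 15.8 and 244 CPM. KI vehicle was high throughout, at 319, 485 and 444 CPM, and KI PFOA held 268, 48.4 and 467 CPM. Exposed libraries lay on both sides of the vehicle libraries in WT, and the log2 fold change was -0.27 (SE 1.10) in WT, -0.27 (SE 0.98) in KO and -0.67 (SE 0.98) in KI. Among the other mucin genes with a mean of at least 1 CPM, the membrane mucins Muc1 (134 CPM), Muc4 (88.5), Muc16 (70.9) and Muc20 (7.37) and the secreted Muc6 (25.9), Muc5ac (5.58), Muc19 (4.40) and Muc2 (1.08) had lower means than Muc5b (220.3 CPM). Of the 12 mucin genes tested, 0 passed with edgeR in WT, and 2 had an unadjusted p under 0.05 (7.35% of all genes), 1 in each direction.

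Bpifb1 (ENSMUSG00000027485, chr2:154190818-154220369, plus strand), a BPI-fold protein of airway goblet cells and glands, was at 2.13 and 3.60 CPM in WT vehicle and 0.380, 0.292 and 25.96 CPM in WT PFOA. In KO it was at 77.4, 0.422 and 3.52 CPM on vehicle and 41.9, 1.06 and 30.4 CPM on PFOA. KI vehicle held 34.4, 38.8 and 49.1 CPM and KI PFOA 27.4, 2.83 and 48.5 CPM. No library lay between 3.60 and 25.96 CPM, a 7.20-fold gap, so that each library was either high or low. The log2 fold change was 1.66 (SE 1.80) in WT, -0.09 (SE 1.26) in KO and -0.64 (SE 1.23) in KI.

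Bpifa1 (ENSMUSG00000027483, chr2:154142880-154149219, plus strand), a surfactant-like BPI-fold protein also called SPLUNC1, had 0 counts in both WT vehicle libraries and was at 0.127, 0 and 16.2 CPM in WT PFOA. Against a floor of 3 counts per vehicle library, the WT PFOA mean was at least 13.4-fold higher, a value that rests on library 65. KO vehicle held 19.1, 0 and 0 CPM and KO PFOA 26.6, 0 and 5.83 CPM. KI vehicle held 36.0, 2.16 and 1.55 CPM and KI PFOA 22.4, 0.257 and 0.419 CPM. Groups overlapped in each genotype, with a log2 fold change of 0.93 (SE 1.78) in KO and -0.73 (SE 1.66) in KI. Bpifb5, of the same family, varied less, with a mean of 2.47 CPM and a highest library of 3.98 CPM. Of the 4 BPI-fold genes tested, 4 were above 0 in WT and 0 passed with edgeR. An unadjusted p under 0.05 was seen for 2 of them (7.35% of all genes), Bpifb5 included but not Bpifa1 or Bpifb1.

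The antimicrobial genes followed the same libraries. Reg3g (ENSMUSG00000030017, chr6:78466269-78468872, minus strand) had 0 counts in both WT vehicle libraries and was at 0.127, 0 and 4.63 CPM in WT PFOA, a mean at least 3.90-fold above the floor of 3 counts per vehicle library that rests on library 65. It was at 10.8, 0 and 0.377 CPM in KO vehicle and 3.72, 0 and 3.89 CPM in KO PFOA. KI vehicle held 12.9, 5.73 and 4.36 CPM and KI PFOA 1.71, 0 and 6.43 CPM. It was detected in all 3 KI vehicle libraries and in neither WT vehicle library. Ltf (ENSMUSG00000032496, chr9:111019271-111042767, plus strand), which is also made by neutrophils, was at 5.46 and 2.95 CPM in WT vehicle and 2.28, 0.146 and 15.5 CPM in WT PFOA. KO held 43.3, 0.844 and 0.377 CPM on vehicle and 26.7, 0.958 and 18.8 CPM on PFOA. KI held 93.0, 18.1 and 3.80 CPM on vehicle and 25.0, 1.93 and 9.64 CPM on PFOA. Groups overlapped in each genotype for both genes, with a log2 fold change for Reg3g of -0.44 (SE 1.42) in KO and -1.51 (SE 1.32) in KI. The log2 fold change of Ltf was 0.51 (SE 1.68) in WT, 0.16 (SE 1.32) in KO and -1.63 (SE 1.28) in KI.

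Pigr (ENSMUSG00000026417, chr1:130826684-130852249, plus strand), the transcytosis receptor for IgA, was at 38.9 and 89.8 CPM in WT vehicle and 31.4, 27.2 and 27.5 CPM in WT PFOA. All 3 exposed WT libraries lay under both vehicle libraries. In KO it was at 53.2, 25.9 and 30.3 CPM on vehicle and 33.9, 16.4 and 21.4 CPM on PFOA. In KI it was at 34.5, 36.1 and 31.6 CPM on vehicle and 22.4, 21.6 and 57.3 CPM on PFOA. The log2 fold change was -1.16 (SE 0.40, edgeR adjusted p = 0.544) in WT, -0.60 (SE 0.37) in KO and -0.02 (SE 0.36) in KI, and over the 3 genotypes it was -0.56 (SE 0.23, edgeR adjusted p = 0.537), with an exact permutation p of 0.0383. The WT value was -0.43 without library 122. A list of 5 related genes held Igha and Jchain, which form the dimeric IgA that Pigr carries, the IgM heavy chain gene Ighm, and the B cell factors Tnfsf13 and Tnfsf13b. In WT 4 of them had a log2 fold change above 0 and Tnfsf13 was at -0.25, with a median of 0.69, while 46.1% of all genes were below 0. Only Jchain (1.58) had an unadjusted p under 0.05 (7.35% of all genes), and 0 passed with edgeR.

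Chad (ENSMUSG00000039084, chr11:94565047-94569127, plus strand), which overlaps Acsf2 on the opposite strand and so may share reads with it where strand was not used, was at 14.0 and 32.3 CPM in WT vehicle and 8.74, 8.48 and 18.4 CPM in WT PFOA. KO held 24.4, 10.3 and 10.04 CPM on vehicle and 17.8, 10.9 and 14.7 CPM on PFOA. KI held 22.1, 15.8 and 21.9 CPM on vehicle and 24.1, 10.9 and 25.4 CPM on PFOA. The groups overlapped in each genotype. The log2 fold change was -0.95 (SE 0.44, edgeR adjusted p = 0.663) in WT, -0.01 (SE 0.41) in KO and 0.02 (SE 0.39) in KI. Without library 122 the WT value was -0.23.

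**Figure D2:**
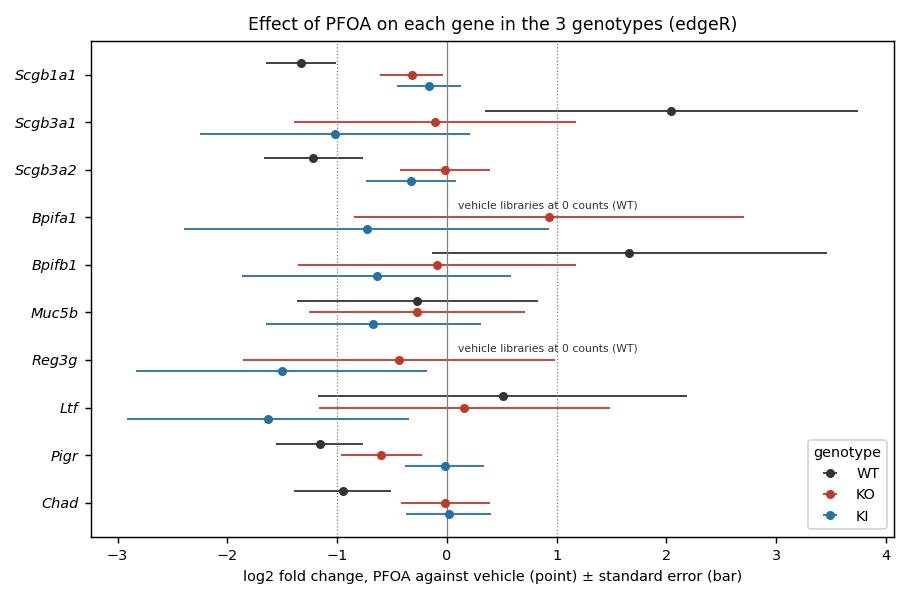
Log2 fold change of PFOA against vehicle for each gene (x axis, points) with its standard error (bars) in WT, KO and KI, from edgeR. Dotted lines mark a 2-fold change, and Bpifa1 and Reg3g have no WT point because both vehicle libraries were at 0 counts. Scgb1a1, Scgb3a2 and Pigr lie below the 2-fold line in WT and the bars of Scgb3a1, Bpifa1, Bpifb1, Muc5b, Reg3g and Ltf are wide.

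Counted together, 0 of 10 genes passed with edgeR in WT, where 0% of all 26946 genes passed, and 4 had an unadjusted p under 0.05 (Scgb1a1, Scgb3a2, Pigr and Chad, all lower), against 7.35% of all genes in either direction and 4.23% lower. DESeq2 on the same genes passed 2, Scgb1a1 and Bpifa1, of which Bpifa1 has vehicle libraries at 0 counts. The exposed libraries of 2 genes lay wholly under the vehicle libraries, as did those of 10.9% of all genes. Without vehicle library 107, which leaves library 122 alone in its group and assumes that it varies like the others, the threshold was met by Scgb1a1 (-1.78), Scgb3a2 (-1.72), Pigr (-1.64) and Chad (-1.44), along with 1672 genes in all, and these are given as values only. The median log2 fold change of the 10 genes was 0.12 in WT, with 5 on either side of 0, and the median of all genes was 0.04. In KO and in KI, 0 of 10 passed with edgeR (0% of all genes in each), 0 of 10 with DESeq2, and 0 of 10 had an unadjusted p under 0.05, against 9.79% and 2.59% of all genes. Without overlap were 1 gene in KO (Scgb1a1, lower, against 5.99% of all genes) and 0 in KI (3.78% lower and 4.45% higher among all genes). Over the 3 genotypes 0 of 10 passed with edgeR (0% of all genes) and with DESeq2, and 2 had an unadjusted p under 0.05, Scgb1a1 and Pigr, both lower (8.27% of all genes, 4.47% lower). In the exact permutation test, not adjusted over genes, p was 0.01 for Scgb1a1 and 0.0383 for Pigr. For the remaining members the same test gave p from 0.0888 (Scgb3a2) to 0.953 (Scgb3a1).

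The PFOA effect itself was compared between genotypes. For Scgb1a1 the KO effect was above the WT effect by 1.01 (SE 0.43, edgeR adjusted p = 0.669) and the KI effect by 1.17 (SE 0.43, edgeR adjusted p = 0.999) on the log2 scale. For Pigr the KI effect was above the WT effect by 1.14 (SE 0.54, edgeR adjusted p = 0.999). For Scgb3a2 the differences were 1.20 (SE 0.61) in KO and 0.89 (SE 0.61) in KI, and for Chad 0.94 (SE 0.60) and 0.97 (SE 0.59). Of the 10 genes, 0 passed with edgeR in either difference (0% of all genes in each), and those with an unadjusted p under 0.05 were Scgb1a1 in the first (7.46% of all genes, 2.56% in this direction) and Scgb1a1 and Pigr in the second (4.58%, 2.19% in this direction). DESeq2 passed 1 gene in each, Bpifa1, whose WT vehicle libraries were at 0. The 2 differences share the WT libraries, and those of Scgb1a1 were 0.36 and 0.51 without library 122. Without library 107, where library 122 alone stands for WT vehicle and is assumed to vary like the others, they were 1.46 in KO and 1.62 in KI, and the second passed (edgeR adjusted p = 0.170), given as values only.

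Between genotypes over both exposures, Scgb1a1 was lower in libraries labelled KO than in WT by a log2 fold change of -0.71 (SE 0.24, edgeR adjusted p = 0.171), under the 2-fold threshold, and its value was -0.33 without library 122. In libraries labelled KI 8 of the 10 genes had larger values than in WT. The log2 fold change was 2.35 (SE 1.03, edgeR adjusted p = 0.450) for Bpifb1, 2.19 (SE 1.22) for Reg3g and 2.04 (SE 1.06) for Ltf. It was 1.94 (SE 1.45) for Bpifa1, 1.79 (SE 1.04) for Scgb3a1 and 1.72 (SE 0.73, edgeR adjusted p = 0.423) for Muc5b. For Scgb3a2 and Chad it was 0.49 (SE 0.32) and 0.31 (SE 0.30). In KO against WT the first 6 were also above 0, in the same order at 1.92 (SE 1.02), 1.42 (SE 1.22), 1.39 (SE 1.04), 1.45 (SE 1.39), 0.90 (SE 1.01) and 1.01 (SE 0.71). In KI against KO these 6 lay between 0.43 (Bpifb1) and 0.88 (Scgb3a1), with SE from 0.66 to 1.23. With edgeR 0 of 10 genes passed in KO against WT (2.36% of all genes), 0 in KI against WT (1.37%) and 0 in KI against KO (0.00742%), and DESeq2 also passed 0 in each. With sex as a covariate Bpifa1 passed in KO against WT, with a log2 fold change of 5.61 (edgeR adjusted p = 0.136) in place of 1.45, and all 6 KO libraries came from females. An unadjusted p under 0.05 was seen for Scgb1a1 in KO against WT (12.9% of all genes, 5.47% lower), for Bpifb1 and Muc5b in KI against WT (9.65%, 5.66% higher) and for 0 genes in KI against KO (4.78%). Library 65 was the only WT library among the 9 highest for Scgb3a1, Bpifa1, Bpifb1, Muc5b and Reg3g. Leaving it out thus had to lower their WT level, and the calls that follow are given as values only. Without library 65, Scgb3a1 (3.76), Bpifa1 (7.64), Bpifb1 (4.46), Muc5b (2.51) and Reg3g (6.52) passed in KI against WT, and Bpifa1 (7.31), Bpifb1 (4.10) and Reg3g (5.85) passed in KO against WT. In that fit 469 of all 26652 genes (1.76%) passed in KI against WT and 597 (2.24%) in KO against WT. For Bpifa1 and Reg3g, which WT libraries then barely hold, these fitted values depend on the prior count.

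The libraries with the highest values were shared by several of the genes. Libraries 52, 57, 65, 102, 116, 135, 137, 139 and 155 held the 9 highest values of Bpifb1, and also the 9 highest of Scgb3a1, Muc5b, Reg3g and Bpifa1. Ltf, Chad and Scgb3a2 had 8 of their 9 highest in this set, Pigr 6 and Scgb1a1 5. Of the 26945 other genes tested, 89 (0.330%) had all 9 of these libraries as their 9 highest and 399 (1.48%) had at least 8, with a median of 5 shared. From the ninth to the tenth library the level differed by 3.53-fold for Scgb3a1 (17.3 to 4.91 CPM), 4.55-fold for Reg3g (1.71 to 0.377 CPM) and 1.87-fold for Muc5b (221 to 118 CPM), whose values were graded and not split at this place. For Bpifa1 the ninth value and the next were 0.419 CPM (3 counts, library 139) and 0.257 CPM (2 counts, library 80), so its 9 of 9 rests on 1 count. The set crossed the groups: 0 of 2 WT vehicle libraries, 1 of 3 WT PFOA, 1 of 3 KO vehicle, 2 of 3 KO PFOA, 3 of 3 KI vehicle and 2 of 3 KI PFOA. By exposure it held 4 of 8 vehicle and 5 of 9 PFOA libraries, by genotype 1 of 5 WT, 3 of 6 KO and 5 of 6 KI, and by sex 6 of 12 female and 3 of 5 male libraries.

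**Figure D3:**
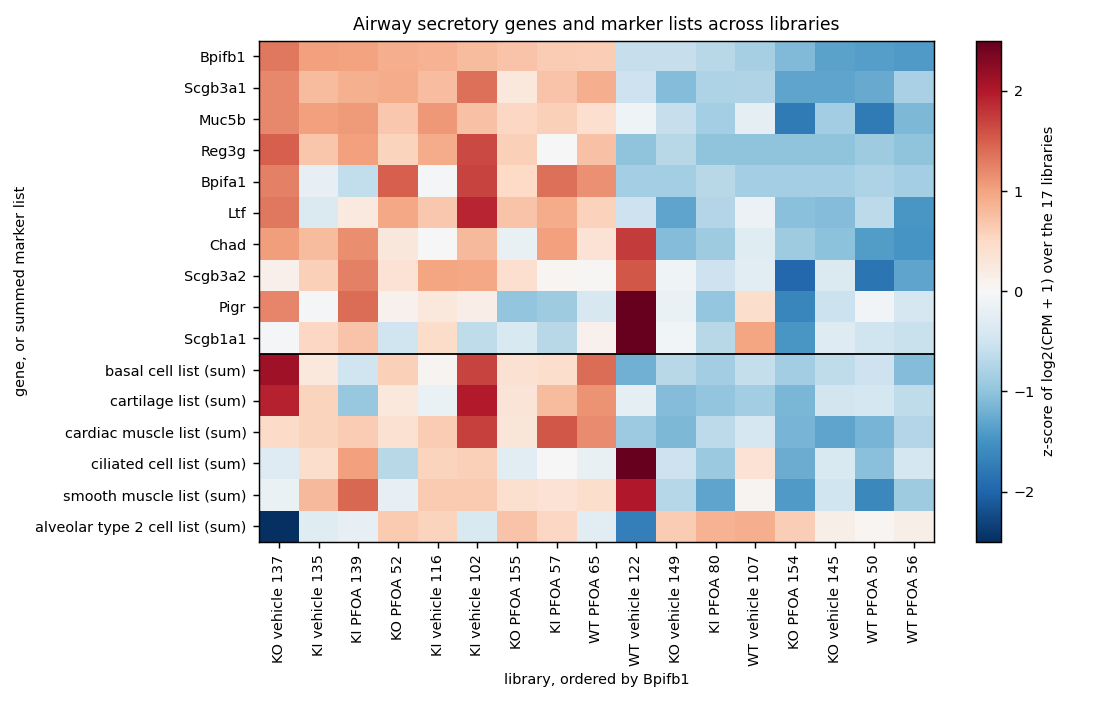
Colour gives the z-score over the 17 libraries of log2(CPM + 1) for each gene (rows above the line) and for the summed level of marker lists (rows below it), with libraries on the x axis in order of Bpifb1. The 9 leftmost libraries hold the 9 highest values of Bpifb1, Scgb3a1, Muc5b and Reg3g and of the basal cell and cardiac muscle lists. For the basal cell list library 139 is at the median of the libraries. Library 122 is high for Scgb1a1, Pigr and the ciliated cell list.

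Some marker lists of other cell types and tissues had the same highest libraries, and others did not. The summed level of the basal cell list (5 genes, Krt5, Krt14, Trp63, Krt15 and Ngfr) ran from 1.80 to 28.8 CPM and that of the cardiac muscle list (6 genes) from 276 to 7119 CPM, and both had 9 of their 9 highest libraries in common with Bpifb1. For the basal list the lowest of these, 3.63 CPM in library 139, was close to the next value, 3.55 CPM in library 50. By group, the basal sum was 1.80 to 3.33 CPM in WT vehicle, 2.05 to 16.8 in WT PFOA, 3.01 to 28.8 in KO vehicle, 2.56 to 9.17 in KO PFOA, 5.98 to 21.2 in KI vehicle and 2.57 to 8.11 in KI PFOA. The cardiac sum was 433 to 727 CPM in WT vehicle, 329 to 4072 in WT PFOA, 276 to 1909 in KO vehicle, 325 to 1704 in KO PFOA, 2068 to 7119 in KI vehicle and 562 to 6048 in KI PFOA. Cartilage markers (5 of 8 listed genes in the table) shared 8 of 9, and ciliated cell and smooth muscle markers 7 each. Alveolar type 2 and type 1 cell markers shared 4 each, neutrophil markers 5 and endothelial markers 3. Krt5 was at 0 counts in 7 libraries, Col2a1 in 5 and Acan in 4. In bulk tissue, fewer cells of a type and less RNA per cell cannot be told apart, and the part of these tissues in the levels above was not tested. Ltf shared 8 of 9 libraries with the basal list and 5 of 9 with the neutrophil list. Chad shared 8 of 9 with the cartilage list, and also with the basal cell and cardiac muscle lists. Bpifb1, Scgb3a1, Scgb3a2, Muc5b, Reg3g and Bpifa1 likewise shared 8 of 9 with the cartilage list, so this match was not particular to Chad.

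Scgb1a1 and Pigr had only 5 and 6 of their 9 highest libraries in common with Bpifb1. Over the 17 libraries, which share depth and the piece of lung sampled, log2 levels of Scgb1a1 and Pigr had a Pearson r of 0.843 and a Spearman rho of 0.735, and r was 0.721 without the 2 libraries farthest from the median of Scgb1a1. The summed ciliated list had r = 0.894 and rho = 0.64 with Scgb1a1 (r = 0.665 without its 2 farthest libraries), and r = 0.776 and rho = 0.846 with Scgb3a2 (0.774). Smooth muscle markers had r = 0.859 and rho = 0.816 with Chad (0.787). With group means removed, r was 0.743 for Scgb1a1 and Pigr, 0.537 for Scgb1a1 and Muc5b and 0.581 for Pigr and Muc5b. The last 2 were 0.3 and 0.418 before, so within groups these genes were not separate from Muc5b. In all, 11 relations were computed with and without 2 libraries, and r also for every pair of the 10 genes, as descriptions. The genes of at least 5 mean CPM most like Scgb1a1 by Pearson r, among 13371, were Hp (0.942), Ptpn13 (0.941) and 5330417C22Rik (0.932). Those most like Pigr were Hspa2 (0.911), Kcnk2 (0.897) and Arhgdig (0.889), and those most like Chad were Synpo2 (0.942), Des (0.928) and Rp1 (0.917). The genes with the highest Pearson r to Bpifb1, Scgb3a1 and Muc5b included each other, and beyond them Adam8 for Bpifb1, the cardiac genes Tnnt2 and Tbx20 for Scgb3a1, and Adam28 for Muc5b. The levels of Bpifb1 and Scgb3a1 fell into separate high and low values, so no r is given for them. Muc5b was graded over the libraries and, beyond the values above, is given by its shared libraries only.

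Ciliated cell genes and most other club and goblet cell genes had lower values in the exposed WT libraries, and most basal cell genes did not. All 15 ciliated genes were lower in WT PFOA with an unadjusted p under 0.05 (4.23% of all genes) and a median log2 fold change of -1.17, and 0 passed with edgeR. Of 23 other club and goblet cell genes tested, 20 were below 0 and 10 had an unadjusted p under 0.05, all lower, with a median of -0.84, and 0 passed. Of the 5 basal cell genes, 4 were above 0 in WT, with a median of 1.47, and 0 passed or had an unadjusted p under 0.05. Their sum was 3.33 and 1.80 CPM in WT vehicle libraries 107 and 122. It was 3.55, 2.05 and 16.8 CPM in WT PFOA libraries 50, 56 and 65, so the higher level rests on library 65. The smooth muscle list had a median of -0.88, with 4 of 6 genes at an unadjusted p under 0.05. These lists were chosen with earlier results of these data known. The study had already reported some of their genes as lower in WT, such as Foxj1, Cyp2f2 and Lmod1. The counts for the ciliated, club and goblet, and smooth muscle lists are therefore descriptions only. Of 17 regulators of secretory cells, such as Foxa2 and Notch2, 6 had an unadjusted p under 0.05, all lower, and 0 passed, with a median of -0.14. Of 12 genes of the IL-17 and acute mucosal response, which includes known inducers of airway antimicrobial genes, 0 passed and 0 had an unadjusted p under 0.05 in WT, with a median of -0.03. In KO 3 of them and in KI 2 of them were higher with an unadjusted p under 0.05 (9.79% and 2.59% of all genes), and 0 passed with edgeR. Their summed level was 91.8 to 119.7 CPM in KO vehicle and 143 to 167.5 CPM in KO PFOA. Neutrophil markers summed to 18.1 to 28.6 CPM in KO vehicle and 52.3 to 71.5 CPM in KO PFOA, with 5 of 8 tested genes higher at an unadjusted p under 0.05 and 0 past the threshold. S100a8 and S100a9 are in both the IL-17 and the neutrophil list, so the sums of these lists are not separate observations. Lcn2 is in both the IL-17 list and the club and goblet list. Ltf overlapped between the KO groups, and the part of these markers in its levels was not tested. The summed ciliated level was 1809 and 3153 CPM in WT vehicle libraries 107 and 122 and 1348 to 1610 CPM in WT PFOA. It was 1506 to 1563 CPM in KO vehicle, 1295 to 1578 in KO PFOA, 1834 to 1894 in KI vehicle and 1378 to 2077 in KI PFOA. With a ciliated score as a covariate the WT effect was 0.20 for Scgb3a2, 0.23 for Pigr and 0.45 for Chad, no longer below 0. Library 122 had the highest ciliated and smooth muscle sums (3153 and 2640 CPM) and, among WT libraries, the lowest alveolar type 2 sum (5178 CPM). With 2 WT vehicle libraries, exposure and the share of airway in the sampled tissue cannot be told apart.

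**Figure D4:**
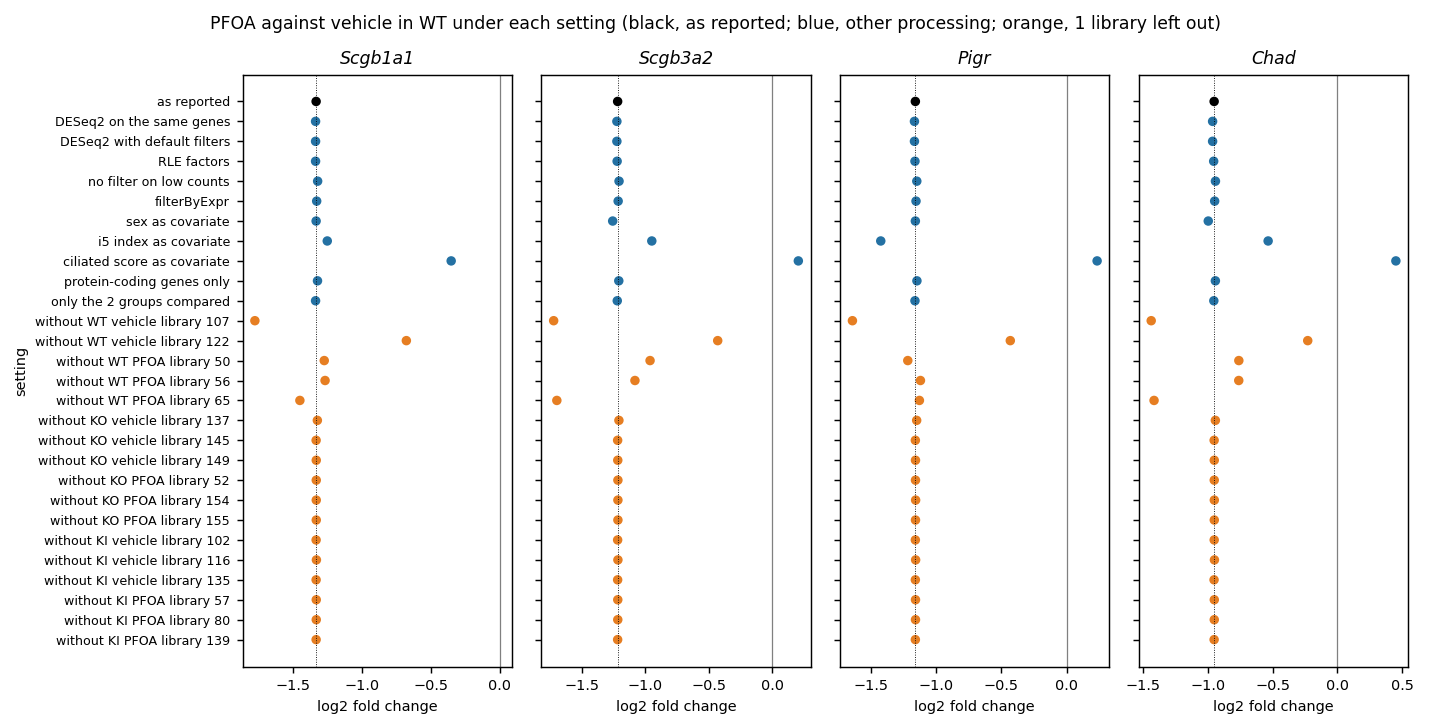
Log2 fold change of PFOA against vehicle in WT (x axis) for Scgb1a1, Scgb3a2, Pigr and Chad under each setting of the processing (y axis). The black point is the value as reported, blue points are other settings and orange points leave out 1 library. Leaving out vehicle library 122 brings the 4 values to -0.68, -0.43, -0.43 and -0.23, and the ciliated score brings 3 of them above 0.

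The spread between libraries of 1 group set what could be seen. The biological coefficient of variation within groups, as edgeR estimated it, was 0.232 for Scgb1a1, 0.310 for Pigr, 0.335 for Chad and 0.347 for Scgb3a2. It was 0.785 for Muc5b, 1.05 for Scgb3a1, 1.11 for Bpifb1 and for Ltf, 1.34 for Reg3g and 1.69 for Bpifa1, against a median of 0.273 over all genes tested. Compared with genes within a factor of 2 in mean CPM, the 9 genes other than Scgb1a1 lay between the 96.5 and 99.9 percentiles of this spread. Scgb1a1 had only 5 genes of similar level.

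**Figure D5:**
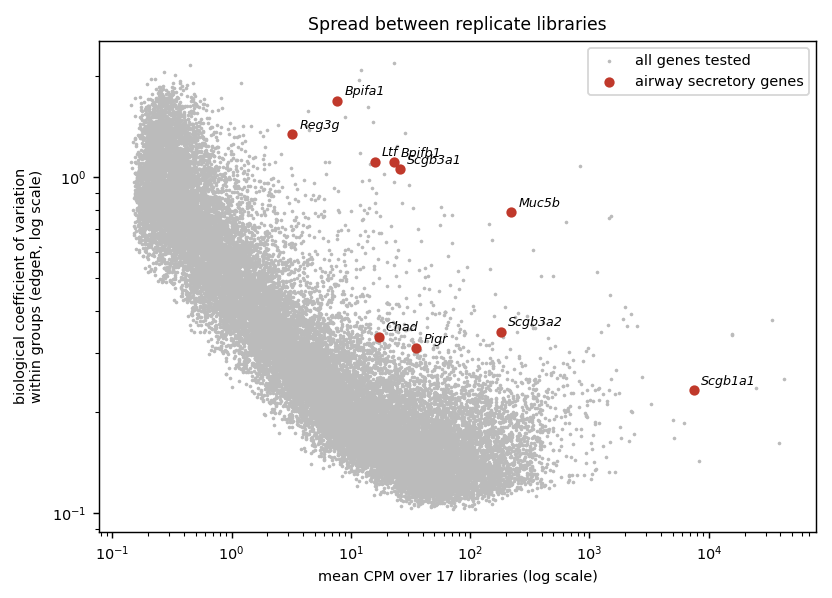
Biological coefficient of variation within groups (y axis, log scale) against mean CPM over 17 libraries (x axis, log scale) for all genes tested (grey) and the 10 airway secretory genes (red). Bpifa1, Reg3g, Bpifb1, Ltf, Scgb3a1 and Muc5b lie far above genes of like level.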

How the data were processed

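Lung RNA of 17 mice had been made into libraries with a stranded total RNA kit. After trimming 3′ bases under a phred score of 20, the authors mapped reads against mm10 (STAR 2.6 within Partek Flow) and assigned them to genes by expectation-maximization. What the authors deposited are these estimated counts, unnormalized, and 29.9% of the values are not whole numbers. The annotation release and the use of strand in counting are not given in the sources used here. Multi-mapped reads are split by such a model, so counts of near-identical genes are less certain.

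Estimated counts were rounded to whole numbers, and 4299 genes totalling fewer than 20 were dropped. With edgeR 4.0.16 under R 4.3.3 (TMM factors, quasi-likelihood, 1 coefficient per group over all 17 libraries, additive models for effects over genotype or exposure) 26946 genes were tested, with Benjamini-Hochberg adjustment over all of them. A gene passed at an adjusted p under 0.2 with a fold over 2, the thresholds of the study. DESeq2 1.42.0 was the alternative. CPM values are TMM-scaled. Exact permutation tests used log2(CPM + 1). The ciliated score was the mean z-score of log2 CPM over the 15 ciliated genes. On simulated counts for PFOA against vehicle in WT (26483 genes, 200 changed 4-fold), edgeR recovered 195 with 23 other calls. The changed genes all had a mean over 5 CPM, and no simulated library stood apart as 122 and 137 did. The recovery is therefore no measure of what could be seen for the genes described here.

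Groups came from the sample labels, and exposure dose, sucrose and starting age from the study's methods. Replicate libraries of a group differed by more than sampling noise (chi-square per degree of freedom at least 6.28), so each counted as 1. No rows lacked a gene name. Named genes are the 10 members, family members with a mean of at least 1 CPM, listed marker genes, and the 3 genes of at least 5 mean CPM most like 6 of the members. The members and lists were chosen with earlier results of these data known. Gene positions are from GENCODE M21 (mm10), in which 96.7% of the table's names were found once. Tables and figures used Python 3.11.15, pandas 2.3.3, numpy 2.4.6, scipy 1.17.1 and matplotlib 3.10.9. The alternatives were DESeq2 with and without its default filters, RLE factors, no filter, filterByExpr, sex, i5 index or ciliated score as covariate, a restriction to protein-coding genes, fits to the 2 groups alone, other thresholds and leaving out each library.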

Additional observations from a re-analysis of the deposited data

How the results depend on the processing

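No paired analysis was possible because mouse numbers are unique to each library, so no replicate block could be fitted. The counts of genes past the threshold were 0 with edgeR for PFOA against vehicle in WT, KO, KI and over the 3 genotypes and for both differences of the PFOA effect, and 637, 368 and 2 for KO against WT, KI against WT and KI against KO. With DESeq2 on the same genes they were 24 in WT, 68 in KO, 1 in KI, 26 over the 3 genotypes, 3 for the KO minus WT difference, 1 for the KI minus WT difference and 8 for KI against KO, and with its default filters 74, 72, 1, 22, 3, 1 and 9. The i5 index as covariate gave 1 in WT, 2 in KO and 1 for the KO minus WT difference, the fit of the 2 groups alone 1 in KO, and no fold minimum 1 over the 3 genotypes, 1577 for KO against WT and 751 for KI against WT. An adjusted p under 0.05 gave 258 and 179 for KO and KI against WT, and protein-coding genes only 241 for KI against WT. Leaving out 1 library gave 0 to 1672 in WT (1672 without library 107), 0 to 8 in KO, 0 to 5 in KI, 0 to 35 over the 3 genotypes, 0 to 178 and 0 to 350 for the KO and KI differences from WT (both highest without library 107), 461 to 713 and 282 to 541 for KO and KI against WT and 2 to 11 for KI against KO. Log2 fold changes of single genes that changed sign were as follows, none of them past the threshold as reported. With the ciliated score as covariate the PFOA effect was 0.20 for Scgb3a2, 0.23 for Pigr, 0.45 for Chad and 1.72 for Muc5b in WT, 1.61 for Scgb3a1, 0.17 for Scgb3a2, 1.85 for Bpifb1, 0.82 for Muc5b, 1.82 for Reg3g and 0.32 for Chad in KO, 0.38 for Bpifa1, 0.012 for Bpifb1 and 0.086 for Pigr in KI, and 0.034 for Scgb3a2 and 0.30 for Chad over the 3 genotypes. In that fit the KO minus WT difference was -0.034 for Scgb3a2, -0.54 for Pigr and -0.13 for Chad, and the KI minus WT difference -0.37, -0.15 and -0.22. With the i5 index as covariate the effect was 0.34 for Muc5b in WT, 0.19 for Scgb1a1, 0.082 for Scgb3a2, -2.17 for Bpifa1, 0.97 for Bpifb1, 0.24 for Muc5b and -1.44 for Ltf in KO, and 0.049 for Pigr and -0.24 for Chad in KI. With sex as covariate it was -0.28 for Ltf in WT and -0.0029 for Chad in KI. For Ltf in KO it was -0.058 with either form of DESeq2 and -0.044 with protein-coding genes only, and for Chad in KO 0.0008034 without a filter. Leaving out 1 library moved the WT effect from -1.05 to 2.61 for Scgb3a1, -2.99 to 2.23 for Bpifb1, -2.11 to 0.23 for Muc5b and -1.74 to 1.06 for Ltf, each lowest without library 65. It moved the KO effect from -1.40 to 4.06 for Scgb3a1, -0.27 to 0.36 for Scgb3a2, -1.06 to 9.33 for Bpifa1, -0.76 to 3.57 for Bpifb1, -0.78 to 1.68 for Muc5b, -1.09 to 3.53 for Reg3g, -0.53 to 4.64 for Ltf and -0.24 to 0.50 for Chad, each highest without library 137 except Scgb3a2. It moved the KI effect from -5.21 to 2.06 for Bpifa1, -2.73 to 0.16 for Ltf, -0.63 to 0.22 for Pigr and -0.18 to 0.31 for Chad, and the KO minus WT difference of Pigr from -0.16 to 1.04. The cause of these changes was not tested.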
